A study of Homo sapiens with 9 samples.

Results

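NF-κB is a family of transcription factors that waits in the cytoplasm, bound by inhibitor proteins of the IκB family, until a kinase complex marks the inhibitor for destruction. The freed dimers then enter the nucleus and switch on genes of inflammation, immunity and cell survival. Several of those targets are brakes on the pathway, and the precursor NFKB1 and the inhibitor NFKBIA are among them, so the level of the pathway's own RNAs is part of its feedback. In the liver the pathway is known for protecting hepatocytes from death induced by tumor necrosis factor and for driving inflammatory gene expression.

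The genes described here are 10 of the 60683 listed in the count table, chosen by symbol as subunits and feedback or response targets of NF-κB. They are the subunit genes NFKB1, NFKB2, RELA and RELB, the negative regulators NFKBIA and TNFAIP3, the inhibitors of apoptosis BIRC2 and BIRC3, and the targets ICAM1 and IRF1. All 10 were counted in every library and passed the filter on low counts. RNA was sequenced from 9 cultures of Hep3B, an established human liver cancer cell line, after 24 hours in 3 groups of 3 biological replicates. The groups were vehicle (DMSO) at 20% O2, vehicle (DMSO) at 1% O2, and 32-134D, an inhibitor of hypoxia-inducible factors (HIFs), at 1% O2. The labels give no dose of 32-134D, and no library of 32-134D at 20% O2 was analysed here, so the compound can be compared with vehicle only in hypoxia. All of the cells are of a single line, and a change in RNA per cell and a change in the cells that supplied the RNA cannot be told apart in such samples.

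Total counts were between 6013980, in replicate 2 of vehicle at 20% O2, and 40549699, and expression is given as counts scaled to a common library size (CPM) after TMM scaling between libraries. All 7 hepatocyte-lineage markers were present, with summed levels of 16606 to 17922 CPM in vehicle at 20% O2, 11568 to 14408 CPM in vehicle at 1% O2 and 11150 to 16510 CPM with 32-134D. Among them APOB had means of 4486, 405 and 3519 CPM in that order. The defining leukocyte marker PTPRC had at most 3 counts in any library, CD3E and the endothelial marker VWF had none in any library, and COL3A1 and DCN had at most 2 counts. The leukocyte marker ITGAM had 6 to 84 counts per library, with means of 0.966, 2.10 and 1.82 CPM in the same order of groups, and the endothelial marker PECAM1 had 2 to 28 counts, with means of 0.861, 0.211 and 0.860 CPM. The fibroblast list was nearly all PDGFRB, and its summed level was 25.9 to 29.3 CPM in vehicle at 20% O2, 9.44 to 10.6 CPM in vehicle at 1% O2 and 19.7 to 23.9 CPM with 32-134D. The part of these marker differences in the results was not tested. Replicate 3 of 32-134D stood apart from its group, with chi-square statistics over genes of 36.4 and 32.5 per degree of freedom against the other replicates, which differed from each other by 1.998.

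NF-κB dimers bind a short DNA element, the κB consensus, and the promoter windows are shown because the members' response can be read beside the letters that NF-κB is known to bind. Sequences of the 250 bases before each annotated start were taken from RefSeq (GRCh38.p14) for 9 of the 10 members, NFKB1, NFKB2, RELA, NFKBIA, TNFAIP3, BIRC2, BIRC3, ICAM1 and IRF1. The κB consensus was searched on both strands, and matches that overlap were counted by position. It was found before at least 1 start of 6 of these 9 genes. For comparison, 6.28% of 27305 genes and 5.21% of 35116 promoters of the same length held it. The windows below are written 5′ to 3′ on the strand of the gene, with the κB match in capitals.

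NFKB1: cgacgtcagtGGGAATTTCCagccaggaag

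NFKBIA: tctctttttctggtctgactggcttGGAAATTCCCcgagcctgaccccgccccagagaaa

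NFKB2: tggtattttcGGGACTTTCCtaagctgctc

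TNFAIP3: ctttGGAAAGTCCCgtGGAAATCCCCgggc

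BIRC3 distal: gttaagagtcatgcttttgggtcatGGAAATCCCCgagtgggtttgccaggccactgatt

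BIRC3 proximal: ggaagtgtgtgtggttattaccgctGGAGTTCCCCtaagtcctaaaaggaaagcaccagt

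IRF1: ggccagggctGGGGAATCCCgctaagtgtt

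The NFKB1 window is chr4:102501300-102501329 on the plus strand, and the NFKBIA window is chr14:35404796-35404855 on the minus strand. Read on their own strands, both hold the same match, GGGAATTTCC, which lies on the gene's strand in NFKB1 and on the opposite strand in NFKBIA. The NFKB2 window, chr10:102395674-102395703 on the plus strand, lies before the last of its 3 annotated starts. Its match GGGACTTTCC is also the first match of TNFAIP3, which lies at chr6:137867188-137867217 on the plus strand and holds a second match 2 bases further on. That second match, GGGGATTTCC, is shared by the distal BIRC3 window, chr11:102317260-102317319 on the plus strand. The proximal BIRC3 window is chr11:102317324-102317383, and the IRF1 window is chr5:132490804-132490833 on the minus strand. Matches at 2 or more positions before the same start were found in 0.635% of all promoters. TNFAIP3 and BIRC3 each held 2, and NFKB2 held 3 before its second start, of which 2 overlap, and 2 before its last start. The windows are counted back from RefSeq starts, and GENCODE places an exon over all 30 bases of the TNFAIP3 window, 21 bases of the NFKB1 window and 11 bases of the NFKB2 window.

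No κB match was found in the windows of RELA, BIRC2 and ICAM1, which says only that these letters are absent from these bases. The core of the hypoxia response element was searched as ACGTG and GCGTG on both strands, and these letters were present in 18.5% and 32.2% of all promoters. These shares are per start, and the higher share of genes with a match before any of their starts was not counted for these cores. ACGTG was found before TNFAIP3, where its match on each strand is the same site. GCGTG was found before at least 1 start of NFKB1, NFKB2, RELA, BIRC3, ICAM1 and IRF1, and neither core was found in the windows of BIRC2 and NFKBIA. A match describes the sequence and is not a measured binding site.

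**Figure D1:**
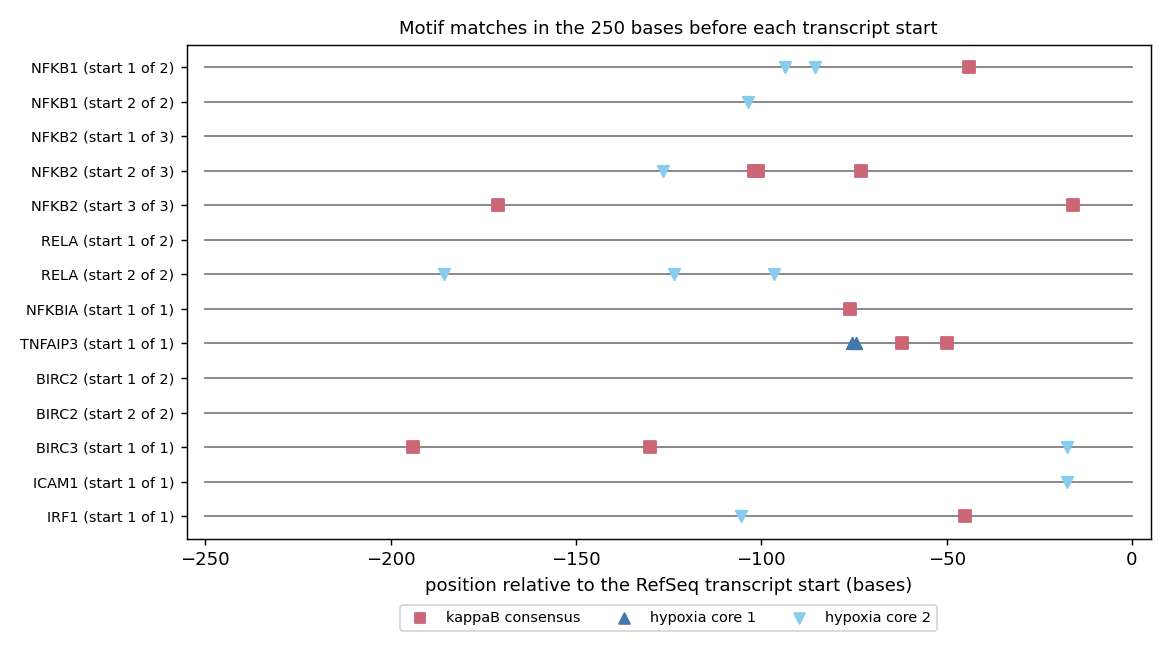
Positions of motif matches in the 250 bases before each annotated start of the 9 members with a promoter sequence, with the distance from the start in bases on the horizontal axis and 1 line per start. Matches to the κB consensus lie on lines of 6 of the 9 genes, and RELA, BIRC2 and ICAM1 have none.

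Hypoxia was compared with normoxia in vehicle-treated cells to ask which members respond to low oxygen. RELA, RELB, NFKBIA, BIRC2 and IRF1 rose, BIRC3 fell, and NFKB1, NFKB2, TNFAIP3 and ICAM1 were not called. Calls required a fold change above 1.5 and a false discovery rate (FDR, Benjamini-Hochberg) below 0.05 in edgeR's quasi-likelihood test over 22672 genes. By this rule 5 of the 10 members were higher, against 19.5% of all genes tested, and 1 was lower, against 20.3%. The median log2 fold change of the members was 0.52, and that of all genes was 0.0010. In either direction 39.7% of all genes were called, so the 6 members called of 10 stand beside a large general response. With total library sizes or upper-quartile scaling, RELB (0.56 and 0.58 on the log2 scale) and NFKBIA (0.46 and 0.48) missed the fold change threshold, and the share of higher genes among all calls was 34.5% and 35.7% in place of 49.0%.

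With 32-134D in hypoxia, RELA, BIRC2 and IRF1 fell against vehicle at 1% O2, and BIRC3 rose. These were 3 members lower, against 13.7% of all genes tested, and 1 member higher, against 16.2%, with 29.9% of all genes called in either direction. The other 6 members were not called, and the median log2 fold change of the 10 was -0.33, beside -0.012 for all genes. This comparison and that of hypoxia share the libraries of vehicle at 1% O2, so opposite signs in them are not independent of each other and each is described by its own values.

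**Figure D2:**
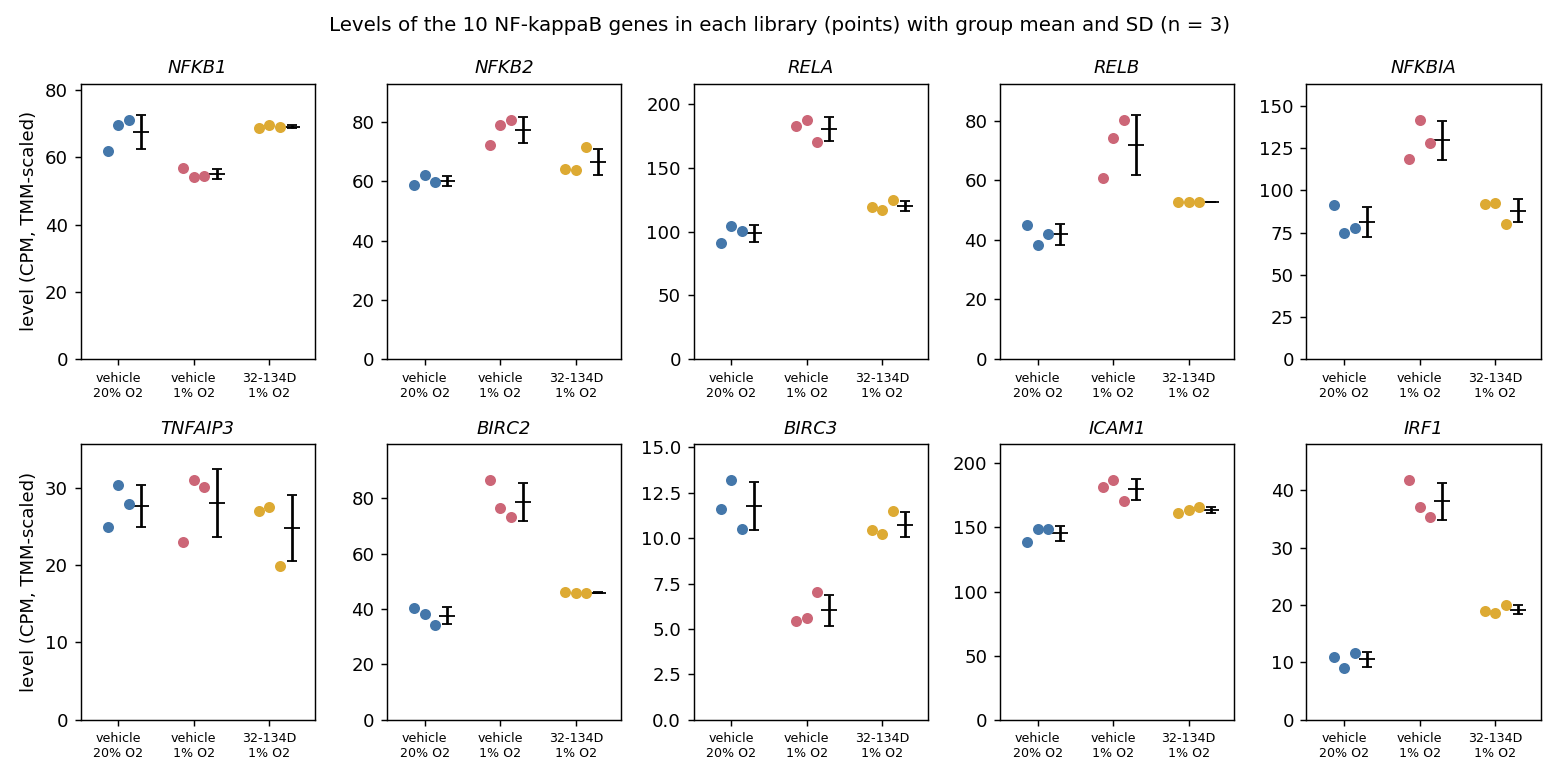
Expression of the 10 members in CPM, with 1 panel per gene, 1 point per library and the mean and SD of the 3 libraries in each group. IRF1 reaches 35.4 to 41.8 CPM in vehicle at 1% O2 and no library of the other groups exceeds 20.03 CPM.

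Among the subunits, RELA (chromosome 11, 65653596 to 65663094) is the gene of the main transactivating subunit. Its levels were 91.0, 104 and 100.1 CPM in replicates 1, 2 and 3 of vehicle at 20% O2, 183, 188 and 169.9 CPM in vehicle at 1% O2, and 119, 117 and 124 CPM with 32-134D. The 3 groups did not overlap, and the libraries with 32-134D lay between both vehicle groups. In hypoxia RELA rose 1.83-fold (log2 fold change 0.87, standard error, SE, 0.07, FDR 1.33e-07 by edgeR). With 32-134D it fell by 0.59 on the log2 scale (SE 0.07, FDR 1.09e-05 by edgeR), which is 1.50-fold and at the edge of the fold change threshold. Its FDR passed in every alternative fit, but the fold change fell short in most of them, with -0.53 to -0.40 for other scalings in place of TMM, and in 7 of the 9 fits that left out 1 library. A divergent transcript, RELA-DT, shares 9 exon bases with RELA and had at most 4.33% of its count.

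RELB (chromosome 19, 45001430 to 45038198) encodes the activating subunit of the noncanonical pathway. Its levels were 45.0, 38.3 and 42.0 CPM in vehicle at 20% O2, 60.8, 74.2 and 80.3 CPM in vehicle at 1% O2, and 52.8, 52.6 and 52.6 CPM with 32-134D. The hypoxic vehicle libraries were the most widely spread, with an SD of 9.99 CPM against 0.102 CPM with 32-134D, and no groups overlapped. RELB rose 1.71-fold in hypoxia (log2 fold change 0.77, SE 0.10, FDR 1.02e-05 by edgeR). With 32-134D it was at -0.45 on that scale (SE 0.10, FDR 0.00139 by edgeR), below the fold change threshold.

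NFKB2 (chromosome 10, 102394110 to 102402529) encodes the precursor of the usual partner of RELB. It was at 58.7, 62.0 and 59.9 CPM in vehicle at 20% O2, at 72.3, 78.9 and 80.9 CPM in vehicle at 1% O2, and at 64.0, 63.9 and 71.6 CPM with 32-134D. All hypoxic vehicle libraries were above the others, and 32-134D replicate 3 was closest to them. The log2 fold changes were 0.36 in hypoxia (SE 0.08, FDR 0.000983 by edgeR) and -0.22 with 32-134D (SE 0.08, FDR 0.0270 by edgeR), neither past the fold change threshold. With total library sizes in place of TMM, they were 0.15 (FDR 0.118 by edgeR) and -0.03 (FDR 0.770 by edgeR).

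NFKB1 (chromosome 4, 102501329 to 102617302) encodes the precursor of the canonical pathway and is itself a target of NF-κB. It was at 61.9, 69.6 and 71.3 CPM in vehicle at 20% O2, at 56.9, 54.0 and 54.4 CPM in vehicle at 1% O2, and at 68.8, 69.7 and 68.9 CPM with 32-134D. Unlike the other subunits, it was lowest in all of the hypoxic vehicle libraries, and the libraries with 32-134D lay within the range of vehicle at 20% O2. The log2 fold changes were -0.29 in hypoxia (SE 0.07, FDR 0.0037 by edgeR) and 0.33 with 32-134D (SE 0.07, FDR 0.00181 by edgeR). Both are below the fold change threshold, so NFKB1 was not called in either comparison.

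The ratios of these RNAs do not depend on how libraries are scaled, and they are given per kilobase of exons as a description, since they were chosen after the values were seen. The ratio of RELA to NFKB1 was 1.68, 1.72 and 1.61 in vehicle at 20% O2, 3.69, 3.98 and 3.57 in vehicle at 1% O2, and 1.98, 1.92 and 2.07 with 32-134D. Its mean was 2.24 times as high in hypoxic as in normoxic vehicle, and no library of the 3 groups overlapped another group. The ratio of RELB to NFKB1 was 1.28 ± 0.192, 2.69 ± 0.436 and 1.57 ± 0.0134 (SD, n = 3) in the same order of groups. The ratio of RELB to NFKB2, the usual partners of the noncanonical pathway, differed less, at 1.03 ± 0.1104, 1.37 ± 0.114 and 1.17 ± 0.0751 (SD, n = 3).

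REL, the remaining family gene, supplied little of this RNA. It made up 1.40% of the summed level per kilobase of the 5 Rel-family genes in vehicle at 20% O2 and 1.43% in vehicle at 1% O2. The share of RELA was 31.7% ± 1.45 in vehicle at 20% O2, 39.4% ± 2.82 in vehicle at 1% O2 and 33.2% ± 0.275 with 32-134D (SD, n = 3). The share of NFKB1 was 18.99% ± 0.890, 10.5% ± 0.742 and 16.7% ± 0.472 (SD, n = 3) in that order. The shares of RELB overlapped between groups, with 21.9% to 26.98% in vehicle at 20% O2 and 25.1% to 30.9% in vehicle at 1% O2. Summed over the 5 genes, the level was 56.8 ± 1.59 CPM per kilobase in vehicle at 20% O2, 83.9 ± 3.47 in vehicle at 1% O2 and 66.1 ± 1.64 with 32-134D (SD, n = 3). REL itself had log2 fold changes of 0.58 in hypoxia (FDR 0.0109 by edgeR) and -0.38 with 32-134D (FDR 0.0714 by edgeR) and was not called.

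**Figure D3:**
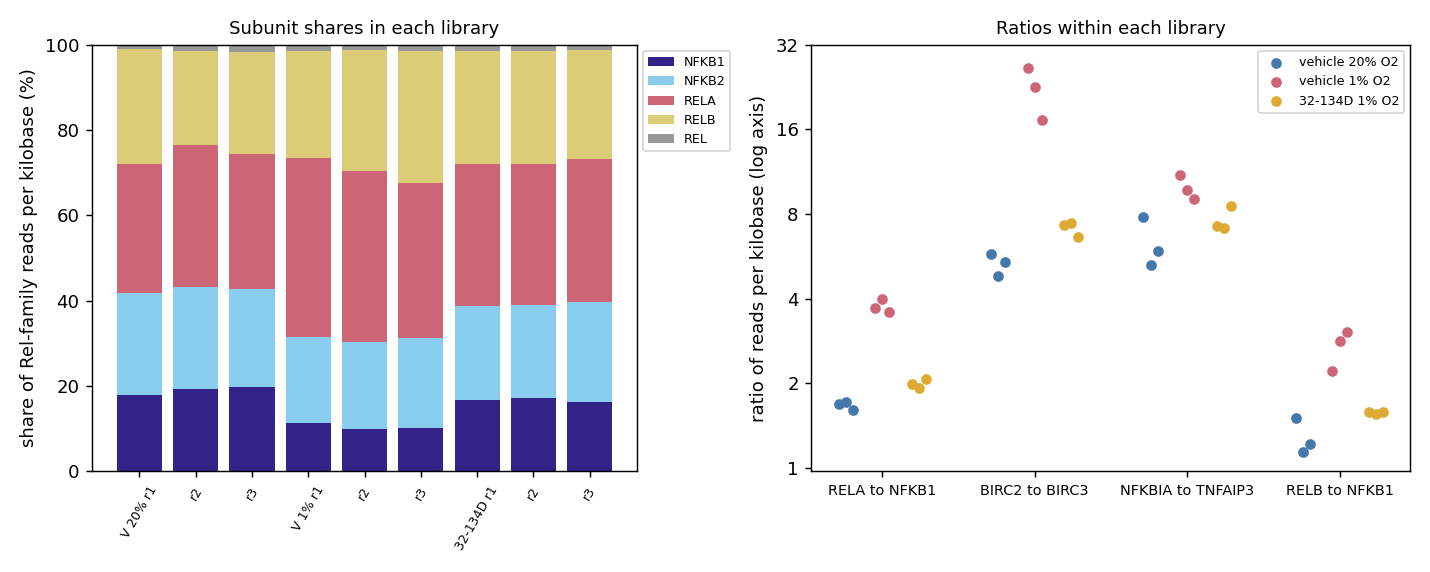
Ratios between pairs of members on a log axis and the percent share of each Rel-family gene in their summed level per kilobase, by group, with 1 point per library in the ratio panel. RELA rises in share from 31.7% to 39.4% between vehicle at 20% O2 and vehicle at 1% O2 while NFKB1 goes from 18.99% to 10.5%.

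Of the negative regulators, NFKBIA rose in hypoxia and TNFAIP3 was not called. NFKBIA (chromosome 14, 35401511 to 35404749) encodes the inhibitor that holds NF-κB dimers in the cytoplasm and is rapidly resynthesized after activation. It was at 91.1, 74.7 and 77.6 CPM in vehicle at 20% O2, at 119, 142 and 128 CPM in vehicle at 1% O2, and at 91.7, 92.3 and 79.99 CPM with 32-134D. The hypoxic vehicle libraries were above all others, and the libraries with 32-134D overlapped those of vehicle at 20% O2. NFKBIA rose 1.59-fold in hypoxia (log2 fold change 0.67, SE 0.09, FDR 2.34e-05 by edgeR). With 32-134D the log2 fold change was -0.56 (SE 0.09, FDR 0.000159 by edgeR), 1.47-fold and just short of a call. It passed the threshold, with -0.62 and -0.59, when replicate 1 of vehicle at 1% O2 or replicate 2 of 32-134D was left out. Leaving out any other library gave no call, with values down to -0.49. The other alternatives gave -0.57 to -0.37, the smallest with total library sizes.

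TNFAIP3 (chromosome 6, 137867188 to 137883312) encodes a ubiquitin-editing enzyme that shuts off signaling to NF-κB. It was at 24.9, 30.3 and 27.9 CPM in vehicle at 20% O2, at 23.0, 31.0 and 30.1 CPM in vehicle at 1% O2, and at 26.97, 27.6 and 19.9 CPM with 32-134D. All groups overlapped, and the lowest library was replicate 3 of 32-134D. The log2 fold change was 0.02 in hypoxia (95% confidence interval -0.32 to 0.37, FDR 0.907 by edgeR), and its sign changed with the scaling. With 32-134D it was -0.17 (interval -0.50 to 0.16, FDR 0.340 by edgeR). The ratio of NFKBIA to TNFAIP3 per kilobase was 6.32 ± 1.32 in vehicle at 20% O2, 9.93 ± 0.972 in vehicle at 1% O2 and 7.63 ± 0.786 with 32-134D (SD, n = 3).

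BIRC2 and BIRC3 encode related inhibitors of apoptosis, ubiquitin ligases that act in signaling from the tumor necrosis factor receptor and restrain the noncanonical pathway. They lie in the same orientation on chromosome 11, BIRC3 at 102317450 to 102339403 and BIRC2 at 102347211 to 102378670, with 7807 bases between them. BIRC2 was at 40.2, 38.2 and 34.2 CPM in vehicle at 20% O2, at 86.5, 76.3 and 73.2 CPM in vehicle at 1% O2, and at 46.0, 45.6 and 45.9 CPM with 32-134D. No groups overlapped. BIRC2 rose 2.11-fold in hypoxia (log2 fold change 1.07, SE 0.09, FDR 8.55e-08 by edgeR) and fell by 0.78 on the log2 scale with 32-134D (SE 0.08, FDR 2.84e-06 by edgeR).

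BIRC3 went the other way. It was at 11.6, 13.2 and 10.5 CPM in vehicle at 20% O2, at 5.43, 5.61 and 7.02 CPM in vehicle at 1% O2, and at 10.5, 10.2 and 11.5 CPM with 32-134D. The hypoxic vehicle libraries were the lowest, and the libraries with 32-134D overlapped those of vehicle at 20% O2. BIRC3 fell by 0.94 on the log2 scale in hypoxia (SE 0.14, FDR 4.03e-05 by edgeR) and rose by 0.83 with 32-134D (SE 0.13, FDR 0.000123 by edgeR). The ratio of BIRC2 to BIRC3 per kilobase was 5.74, 4.80 and 5.40 in vehicle at 20% O2, 26.4, 22.6 and 17.3 in vehicle at 1% O2, and 7.29, 7.40 and 6.60 with 32-134D. Its mean was 4.16 times as high in hypoxic as in normoxic vehicle. This ratio too was chosen after the values were seen.

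ICAM1 (chromosome 19, 10270835 to 10286615) encodes an adhesion molecule to which leukocytes bind, and it is a classical target of NF-κB. It was at 139, 149 and 149 CPM in vehicle at 20% O2, at 181, 187 and 171 CPM in vehicle at 1% O2, and at 161, 164 and 166 CPM with 32-134D. The groups did not overlap, yet the differences were small. The log2 fold change was 0.30 in hypoxia (SE 0.07, FDR 0.00123 by edgeR) and -0.14 with 32-134D (95% confidence interval -0.30 to 0.03, FDR 0.108 by edgeR). With total library sizes in place of TMM, the first value was 0.09 (FDR 0.281 by edgeR) and the second 0.05. With upper-quartile scaling the first was 0.11 (FDR 0.179 by edgeR).

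IRF1 (chromosome 5, 132481609 to 132490798) encodes a transcription factor of the interferon response whose gene is also driven by NF-κB. It was at 10.97, 9.11 and 11.6 CPM in vehicle at 20% O2, at 41.8, 37.1 and 35.4 CPM in vehicle at 1% O2, and at 18.97, 18.5 and 20.03 CPM with 32-134D. Each library of vehicle at 1% O2 was above every library of the other groups, and the libraries with 32-134D were above every normoxic library. IRF1 rose 3.52-fold in hypoxia (log2 fold change 1.82, SE 0.11, FDR 3.52e-09 by edgeR), the largest size of change among the 10 members. With 32-134D it fell by 0.99 on the log2 scale (SE 0.10, FDR 1.35e-06 by edgeR). The gene IRF1-AS1 shares 1716 exon bases with IRF1 on the opposite strand, its own counts of 8 to 46 were at most 13.8% of those of IRF1, and without a stated strand setting the reads of the shared bases cannot be told apart.

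**Figure D4:**
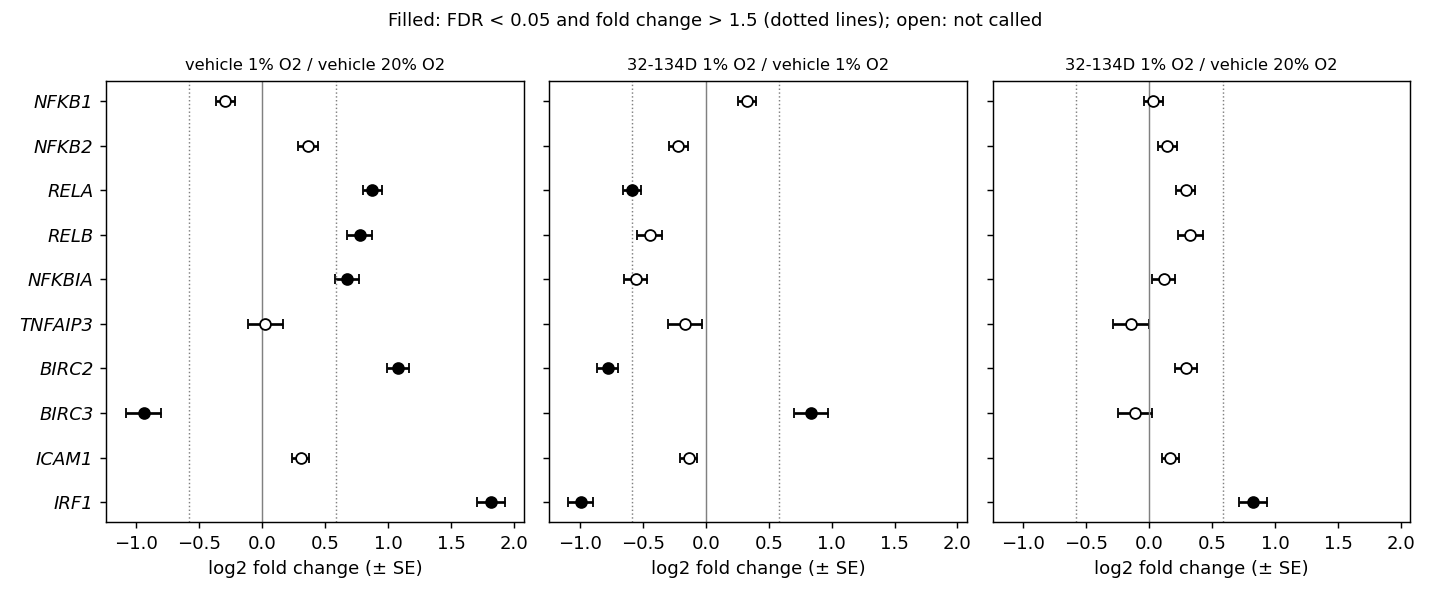
Log2 fold change of each member in the 3 comparisons, with bars of ± SE from the edgeR fit. BIRC3 and NFKB1 lie below 0 in hypoxia and above 0 with 32-134D, and IRF1 lies at 1.82 in hypoxia and -0.99 with 32-134D.

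Set against vehicle at 20% O2, cells given 32-134D at 1% O2 differed little in these genes. IRF1 was called, with a level 1.77-fold higher than in vehicle at 20% O2 (log2 fold change 0.83, SE 0.11, FDR 0.000210 by edgeR). It was 1 of 10 members called, against 3.52% of all genes in either direction. No member was called lower by edgeR or DESeq2. At an unadjusted p below 0.05 by edgeR, 5 members had a higher level and none a lower one. The share of all genes at that unadjusted p was not counted. RELA and BIRC2 were each above their normoxic level by 0.29 on the log2 scale (FDR 0.0228 and 0.0466 by edgeR), short of the fold change threshold. In NFKB2, RELA, RELB, BIRC2, ICAM1 and IRF1, every library with 32-134D was above every library of vehicle at 20% O2. The share of all genes that did so was not counted, so no excess is read from this. Over all genes, 681 were called higher and 117 lower in this comparison. The remaining 4 members overlapped, with log2 fold changes of 0.03 for NFKB1 (95% confidence interval -0.15 to 0.21), 0.11 for NFKBIA (-0.12 to 0.35), -0.14 for TNFAIP3 (-0.49 to 0.20) and -0.11 for BIRC3 (-0.44 to 0.22).

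Levels of different genes were set side by side per kilobase of exons. In vehicle at 20% O2, ICAM1 had the highest mean at 39.3 CPM per kilobase, followed by NFKBIA at 34.2, and the libraries of these genes overlapped. In vehicle at 1% O2 NFKBIA was at 54.7 ± 4.92 and ICAM1 at 48.5 ± 2.17 CPM per kilobase (SD, n = 3), and the libraries of these genes overlapped. RELA and RELB came next at 33.0 and 23.7, then BIRC2 at 17.4 and NFKB2 at 17.2, which did not differ beyond their spread. NFKB1 followed at 8.81, TNFAIP3 and IRF1 at 5.55 and 4.88 with overlapping libraries, and BIRC3 was lowest at 0.801 CPM per kilobase. In vehicle at 20% O2, IRF1 stood at 1.35 CPM per kilobase, near BIRC3 at 1.57, with overlapping libraries. BIRC2 was at 8.28 in the same libraries, below NFKB1 at 10.8.

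For NFKB1, NFKBIA, BIRC3 and ICAM1, the genes with the most similar pattern over the 9 libraries were found by Pearson's r of log2 CPM among 13910 genes. These values are a description, since the 9 libraries fall into 3 groups and share their differences in depth. DICER1, PTPN11 and AFF1 were closest to NFKB1, each with r of 0.993. TBCA (r = 0.994), CYTOR and PIGV were closest to NFKBIA, and STAT6 (r = 0.985), NID2 and LINC01876 to BIRC3. ICAM1 was most like CAPN5 (r = 0.992), FBXL4 and DCTN5.

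The rest of the pathway was described from a list of 47 genes by role, of which 44 were tested. In hypoxia 16 rose and 6 fell, which is 36.4% and 13.6% of those tested, with a median log2 fold change of 0.31. With 32-134D, 6 rose and 11 fell, with a median of -0.20, and the 11 became 6 with total library sizes and 7 with upper-quartile scaling. Over all genes, the 3100 that fell became 1847 and 2213 with these scalings. Against vehicle at 20% O2, cells given 32-134D had 2 of these genes higher, again against 3.52% of all genes in either direction. The background of all genes is that given with the members above.

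Of 11 genes whose proteins attach, edit or bind ubiquitin in the pathway, 5 rose in hypoxia. These were RBCK1, OTULIN, TNIP1, TNIP2 and TAX1BP1, and the other 6 were not called. That is 45.5% higher, beside 19.5% of all genes. TNIP1, which binds TNFAIP3 and helps it to limit signaling, was at 65.4, 63.0 and 63.9 CPM in vehicle at 20% O2, at 203, 224 and 221 CPM in vehicle at 1% O2, and at 84.8, 84.0 and 84.9 CPM with 32-134D. The groups did not overlap. Its log2 fold change was 1.75 in hypoxia (FDR 6.24e-11 by edgeR) and -1.35 with 32-134D (FDR 2.04e-09 by edgeR). TNFAIP3 itself, by contrast in its own values, was at 0.02 and -0.17 on the same scale.

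Of the IκB family genes other than NFKBIA, 2 of 5 rose in hypoxia, NFKBIB and NFKBIE, and NFKBIZ fell. That is 40% and 20%, beside 19.5% and 20.3% of all genes. NFKBIZ, which encodes a nuclear family member that acts as a cofactor of NF-κB, was at 88.5, 93.1 and 98.5 CPM in vehicle at 20% O2, at 21.9, 22.1 and 23.2 CPM in vehicle at 1% O2, and at 76.2, 77.1 and 61.1 CPM with 32-134D. Its log2 fold change was -2.06 in hypoxia (FDR 3.24e-10 by edgeR) and 1.68 with 32-134D (FDR 6.29e-09 by edgeR). The groups did not overlap.

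Among kinases and their partner subunits, 3 of 11 genes rose in hypoxia (IKBKG, TBK1 and TAB2) and 3 fell (IKBKE, TAB3 and MAP3K14). That is 27.3% in each direction, not far from the 19.5% of all genes that were higher and 20.3% that were lower. Receptors had 4 of 7 higher and 1 lower, or 57.1% and 14.3%. Adaptors had 2 of 9 higher (TRAF6 and TRADD) and 1 lower (TRAF3), or 22.2% and 11.1%, and the share that rose was near that of all genes. TRAF6, an adaptor of toll-like receptor signaling, rose by 1.52 on the log2 scale in hypoxia (FDR 9.62e-09 by edgeR). The receptor TLR3, which senses double-stranded RNA, rose by 1.49 (FDR 0.000273 by edgeR), with low levels of 0.628 to 1.28 CPM in vehicle at 20% O2 and 2.49 to 3.50 CPM in vehicle at 1% O2. With 32-134D, TLR3 fell by 1.39 (FDR 0.000275 by edgeR) and TRADD, an adaptor of the tumor necrosis factor receptor, fell by 0.95 (FDR 7.61e-06 by edgeR).

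A second list held 30 targets of NF-κB, of which 22 were tested. In hypoxia 4 rose and 12 fell, or 18.2% and 54.5%, beside 19.5% and 20.3% of all genes, so the share that rose was near the background. The median log2 fold change was -0.64. With 32-134D, 10 rose and 3 fell, or 45.5% and 13.6%, beside 16.2% and 13.7% of all genes, with a median of 0.56. The cytokines and chemokines carried most of these, since 7 of the 9 tested, CXCL1, CXCL2, CXCL3, CXCL8, CXCL10, CCL20 and LTB, fell in hypoxia and rose with 32-134D. TNF and IL32 were not called, with log2 fold changes of -2.28 and -0.10 in hypoxia, and TNF had only 10 counts over all libraries. Outside the cytokine, chemokine and survival genes, 7 targets were tested. In hypoxia 3 of them rose (EFNA1, IFNGR2 and TNFAIP8) and 1 fell (TNFAIP2), or 42.9% and 14.3%, with a median of 0.61. With 32-134D, 1 rose and 2 fell, or 14.3% and 28.6%, with a median of -0.54.

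CXCL1, which recruits neutrophils, was at 19.1, 19.8 and 18.4 CPM in vehicle at 20% O2, at 0.398, 0.283 and 0.415 CPM in vehicle at 1% O2, and at 12.8, 13.5 and 5.30 CPM with 32-134D. Replicate 3 of 32-134D was the lowest of its group, and the groups did not overlap. CXCL1 fell by 5.65 on the log2 scale in hypoxia (SE 0.35, FDR 5.01e-09 by edgeR) and rose by 4.81 with 32-134D (SE 0.35, FDR 7.13e-08 by edgeR). CXCL2 and CXCL3, of the same family, fell by 2.86 and 2.58 in hypoxia and rose by 2.33 and 2.05 with 32-134D, from levels of at most 2.58 CPM in any library.

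CXCL10, which attracts T cells, had 43, 11 and 94 counts in vehicle at 20% O2, 2, 1 and 1 in vehicle at 1% O2, and 86, 60 and 2 with 32-134D. Pooled over replicates and scaled, its level in vehicle at 20% O2 was 61.1 times that in vehicle at 1% O2 (95% exact interval 23.4 to 227, counting error only). With 32-134D the same ratio was 37.4 (interval 14.3 to 139), but replicate 3 had only 2 counts and did not share the higher level.

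Of the 4 targets that rose in hypoxia, EFNA1, an ephrin ligand, was at 66.2, 64.9 and 62.9 CPM in vehicle at 20% O2, at 977, 1200.3 and 1215 CPM in vehicle at 1% O2, and at 152, 156 and 128 CPM with 32-134D. The groups did not overlap, and the log2 fold changes were 4.13 in hypoxia (FDR 1.67e-12 by edgeR) and -2.96 with 32-134D (FDR 7.39e-11 by edgeR). GADD45B, which protects cells from death, rose by 2.39 in hypoxia (FDR 2.52e-10 by edgeR) and fell by 1.66 with 32-134D (FDR 1.41e-08 by edgeR). Of 6 survival targets tested, it was the only 1 that rose in hypoxia (16.7%), and 4 fell (66.7%). These stand beside 19.5% and 20.3% of all genes, and the median log2 fold change of the 6 was -0.62. With 32-134D, 2 of the 6 rose and 1 fell, or 33.3% and 16.7%, beside 16.2% and 13.7% of all genes. PLAU, the urokinase plasminogen activator, rose by 1.78 with 32-134D (FDR 0.00871 by edgeR), but its levels were 4.08, 4.11 and 21.4 CPM, and without replicate 3 the value was 0.55 and no longer a call.

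**Figure D5:**
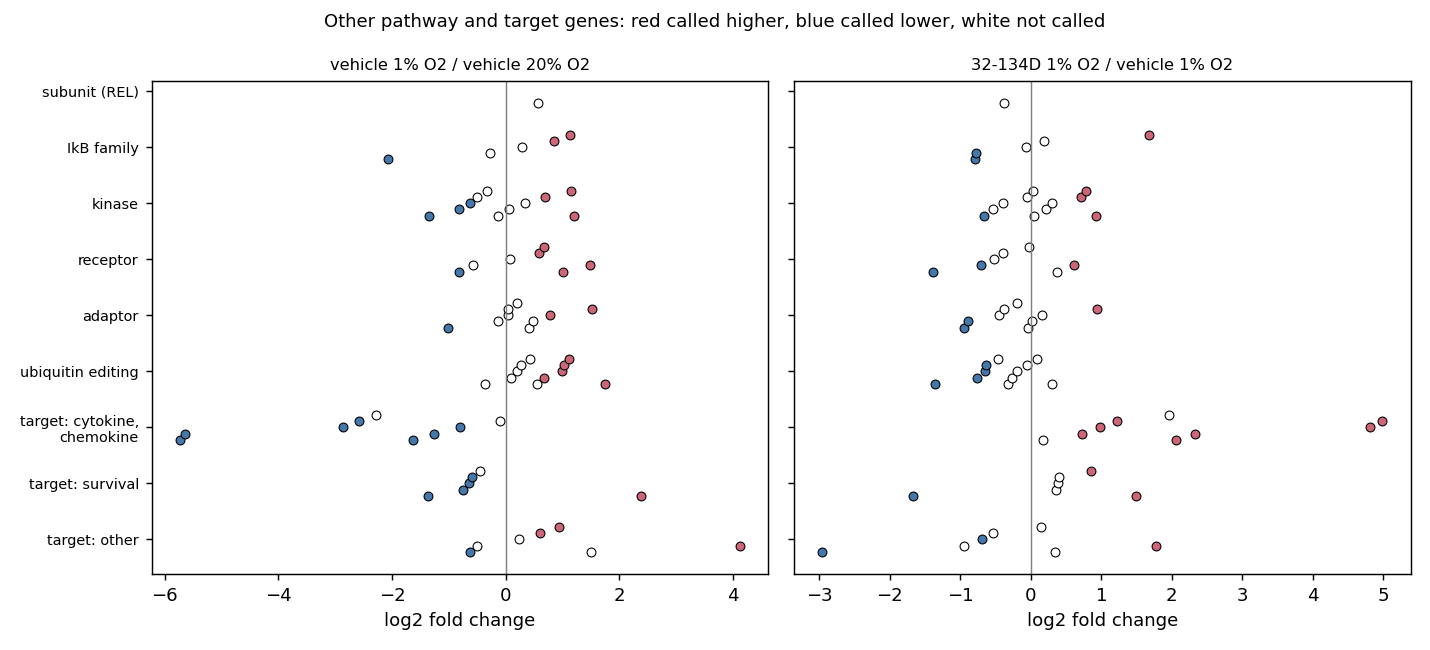
Log2 fold changes of the tested pathway and target genes by role, with 1 point per gene, in hypoxia and with 32-134D, and 0 marked by a line. The cytokine and chemokine genes lie mostly below 0 in hypoxia, with a median of -2.28, and mostly above 0 with 32-134D, with a median of 1.96. Both medians are the values of TNF, which had only 10 counts over all libraries and was not called.

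κB matches were also counted in these lists, in the same 250 bases. They were found before at least 1 start of 8 of 40 pathway genes and 13 of 27 target genes with a promoter sequence, beside 6.28% of all genes. Members with a match moved both ways in hypoxia, with NFKBIA and IRF1 higher, BIRC3 lower, and NFKB1, NFKB2 and TNFAIP3 not called. Of the 3 members without a match in their windows, RELA and BIRC2 rose and ICAM1 was not called.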

How the data were processed

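RNA-seq counts of 9 Hep3B libraries in 3 groups were used. The counts were deposited by the authors as raw reads per Ensembl gene, without normalization. Per the labels and the paper's methods, reads were checked with FastQC, trimmed with Bbduk, mapped with STAR to GRCh38 and counted with featureCounts. The strand setting is not given in the sources used here, and columns of the table were matched to samples by name.

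Genes whose counts summed to at least 10 were tested, 22672 of 60683. Counts were scaled by TMM and compared with edgeR 4.0.16 in R 4.3.3 by the quasi-likelihood test, in 1 fit of 3 groups, with Benjamini-Hochberg adjustment over all genes tested. Calls needed an FDR below 0.05 and a fold change above 1.5. CPM are the TMM-scaled counts, and log2 CPM for likeness used a prior count of 2 in genes with a mean of at least 1 CPM. Confidence intervals of fold changes used the 6 residual degrees of freedom. Positions and exon lengths are from GENCODE release 29 (GRCh38), and promoters from RefSeq (GRCh38.p14). Overlapping genes are named as in the count table. The edgeR steps were run on simulated data with few genes changed, evenly in both directions, so scaling under a broad response was not tested.

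Alternatives were DESeq2 1.42.0, other scalings, filters and fold thresholds, fits of 2 groups, thinning, a replicate block, and fits that each left out 1 library. The members and lists were chosen with earlier results of these data known. The text names all members, REL and, in each of the hypoxia and 32-134D comparisons, the 5 list genes that rose most and the 5 that fell most among those called with a mean of at least 1 CPM in the higher group. Other list genes are named where their role is counted. SOD2 was left out because 2 identifiers share its symbol, and 7 targets and 3 pathway genes did not pass the count filter. The 3 replicates of a group, and for low counts the smallest library (6013980 counts), limit the precision.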

Additional observations from a re-analysis of the deposited data

How the results depend on the processing

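The direction of every called member was kept under every alternative and every left-out library. Total library sizes shifted the median of all genes by -0.21 in hypoxia and 0.17 with 32-134D, and upper-quartile scaling by -0.19 and 0.11. The share of calls that were higher went from 49.0% to 34.5% and 35.7% in hypoxia and from 54.2% to 72.0% and 66.1% with 32-134D under these scalings. Members higher in hypoxia then numbered 3 in place of 5, since RELB (0.56 and 0.58) and NFKBIA (0.46 and 0.48) lost their calls. RELA's call with 32-134D was lost with DESeq2, the other scalings, at least 10 counts in every library, the fit of 2 groups, thinning and the replicate block, leaving 2 members lower in place of 3, and leaving out 1 library gave -0.61 to -0.52, with the call kept only without replicate 2 of vehicle at 20% O2 or replicate 3 of 32-134D. NFKBIA in hypoxia (0.56) also missed the threshold with at least 10 counts in every library. With no fold threshold the members called were 7 higher and 2 lower in hypoxia, 2 higher and 6 lower with 32-134D, and 3 higher against vehicle at 20% O2, and above 2-fold they were 2 and 0, 0 and 0, and 0. Over all 22672 genes, no fold threshold gave 6318 higher and 5814 lower in hypoxia, 4973 and 5788 with 32-134D, and 1771 higher against vehicle at 20% O2. Above 2-fold, these numbers were 2449 and 3286, 2451 and 1188, and 283. Pathway genes lower with 32-134D numbered 11, and 6 with total library sizes, 7 with upper quartile or at least 10 counts, 20 without a fold threshold and 2 above 2-fold. Over all genes, 3100 were lower with 32-134D, 1847 with total library sizes, 2213 with upper quartile and, with at least 10 counts, 1771 of 12912. Above 2-fold, pathway genes numbered 9 higher and 3 lower in hypoxia and 1 higher with 32-134D, and targets 2 higher and 7 lower in hypoxia. With at least 10 counts in every library, 6 targets were higher with 32-134D, in place of 10. Over all genes, 2677 of 12912 were then higher, in place of 3675 of 22672. Some values that were not called changed sign. With total library sizes ICAM1 was 0.052 and TNFAIP3 0.021 with 32-134D. NFKB1 against vehicle at 20% O2 was -0.039 with upper quartile and -0.014 with thinning, and -0.024 to 0.089 leaving out 1 library. TNFAIP3 in hypoxia was -0.025 with DESeq2 and -0.024 with its size factors, -0.19 with total library sizes, -0.17 with upper quartile, -0.086 with at least 10 counts, -0.15 with thinning and -0.10 to 0.15 leaving out 1 library. Where not named, the cause was not tested. Same-numbered replicates did not deviate together (correlations of -0.14 to 0.06), so no pairing by number was seen. With 3 replicates per group this cannot show whether same-numbered samples were handled together. The replicate block gave RELA -0.58 with 32-134D, short of a call, and changed no other member's call.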

Other observations

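Several classical NF-κB targets had almost no reads in these cells. Over the 9 libraries IL6, IL1B and SELE had 1 count each, CCL2 had 2 and VCAM1 had 5. CCL5 had 0 counts, which allows up to 3 over all libraries. The same held for the receptor TLR4, with 0 counts.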
